A study of Caenorhabditis elegans with 10 samples.

Results

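The step from 3 h to 6 h after feeding was compared in whole first-stage (L1) larvae of Caenorhabditis elegans that were recovering from starvation arrest. Every library with either of these times was taken, which gave 5 of the 10 libraries of the study: 2 at 3 h and 3 at 6 h. Of 13374 gene units with counts, 13226 had enough reads to be tested. All larvae were of the wild-type strain N2, hatched without food at 20 °C, had been arrested for about 12 h when bacteria (E. coli HB101, 25 mg/mL) were added, and then stayed in the same liquid culture with that food until collection. The comparison therefore holds no starved library, and both of its groups had been fed. The other 5 libraries, 3 of starved larvae and 2 of larvae fed for 1 h, served to estimate the spread and to show where each gene had been before. The labels call the libraries biological replicates and do not name the cultures they came from. The p-values therefore set the difference between 3 h and 6 h against the spread among the libraries, part of which may be technical.

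An arrested L1 larva has hatched but holds back cell division and growth until it eats. Feeding first restarts metabolism and protein synthesis; the postembryonic programme follows, in which blast cells such as the seam cells of the epidermis divide and the epidermis builds the next cuticle beneath the old one, to be exposed at the molt. The new cuticle is laid down on a transient apical matrix of zona pellucida (ZP) proteins, lipocalins and leucine-rich repeat proteins, and its collagens are secreted in waves set by oscillating regulators, among them the nuclear receptor NHR-23 and the Period homolog LIN-42.

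The 5 libraries held between 19163997 and 26588753 counts, each gene's count being the sum over its exonic bins. The correlation of log2 CPM (counts scaled to a common library total) over genes was 0.971 to 0.985 within a time and 0.964 to 0.969 between 3 h and 6 h. Between 3 h and 6 h, 366 units passed an adjusted p of 0.05 in edgeR's quasi-likelihood test with Benjamini-Hochberg adjustment, which is 2.77% of those tested. Of these, 278 were higher at 6 h (2.1%) and 88 were lower (0.665%), and the 3 h and 6 h libraries of all 366 did not overlap. Over all units tested, 32.6% did not overlap, 17.1% with every 6 h library above both 3 h libraries and 15.5% with every 6 h library below them. With library totals alone in place of scaling factors the split was 198 higher and 116 lower. The 3 h group rests on 2 libraries: 120 units were called without replicate 1 at 3 h and 125 without replicate 2, of which 118 and 124 were among the 366. In all 21 alternative analyses 74 of the higher and 15 of the lower units kept their call. Where CPM are given below, the order is replicates 1 and 2 at 3 h, then replicates 1, 2 and 3 at 6 h. A fold change is 6 h minus 3 h on the log2 scale ± its standard error.

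**Figure D1:**
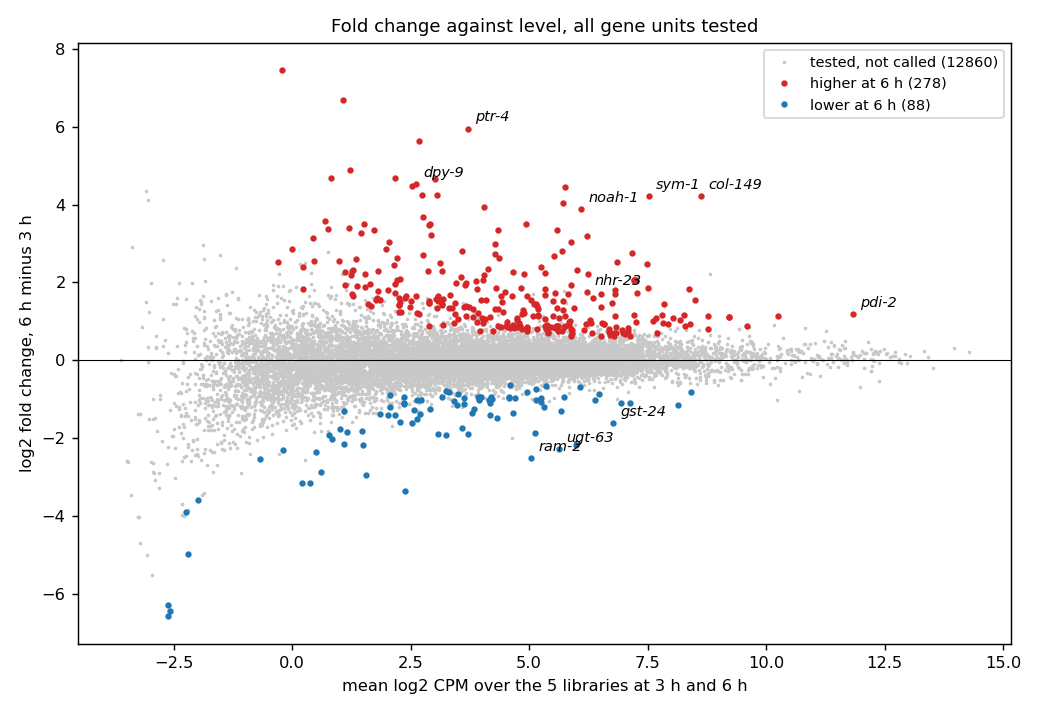
Log2 fold change (6 h minus 3 h, vertical axis) against the mean log2 CPM over the 5 libraries (horizontal axis) for the 13226 gene units tested, 1 point each. The 278 higher units (red) reach larger changes than the 88 lower units (blue) among genes with a mean log2 CPM above 2.5, and the 12860 others are grey.

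Most of the units that rose had not been higher at any earlier time. In 186 of the 278, each 6 h library lay above all 7 earlier libraries, starved ones included. Of the 278, 56 were under 5 CPM in all 7 earlier libraries. Outside the 186, 61 units had a starved mean at or above the 6 h mean. The rise of these 61 returned them to a level they had before feeding or left them below it. Of the 88 that fell, 49 had a 3 h mean above the starved mean and 39 a 3 h mean below it. The median change was 1.46 for the higher units and -1.26 for the lower ones, against 0.01 for all units tested.

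Many genes of the transient matrix that precedes a new cuticle were higher at 6 h. Of 45 tested genes of the apical matrix and of cuticle shedding, 14 rose and 0 fell, and 13 of the 14 rose more than 2-fold, against 1.54% of all units tested. The median over the 45 was 0.59, and 22 (48.9%) had every 6 h library above both 3 h libraries, beside 17.1% of all units. In whole larvae, more cells of a type and more RNA per cell cannot be told apart, here and in all that follows. noah-2, a ZP protein of the epidermal matrix (IV:14091221-14096591, WS210), measured 6.94 and 10.4 CPM at 3 h and 136, 221 and 207 CPM at 6 h. It was at 2.07 to 6.23 CPM in the starved libraries, and its change was 4.44 ± 0.41 (adjusted p = 3.47e-05). Its paralog noah-1 went from 11.2 and 16.6 CPM to 161, 272 and 185 CPM, a change of 3.89 ± 0.32 (adjusted p = 1.16e-05). For both, the lowest 6 h library was more than 9 times the highest 3 h library. fbn-1, a fibrillin-related ZP protein that keeps the epidermis attached during molting, rose from 12.2 and 12.4 CPM to 87.6, 176 and 112 CPM, a change of 3.35 ± 0.36 (adjusted p = 0.000103).

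The leucine-rich repeat proteins of the same matrix, sym-1 and let-4, are neighbours on the plus strand of chromosome X (let-4 at 14577876 to 14580838, sym-1 at 14581577 to 14584291). sym-1 measured 25.8 and 39.5 CPM at 3 h and 390, 664 and 780 CPM at 6 h, a change of 4.23 ± 0.45 (adjusted p = 0.000139). let-4 measured 1.31 and 0.972 CPM and then 14.7, 21.4 and 28.4 CPM, a change of 4.24 ± 0.45 (adjusted p = 7.72e-05). In both the groups were far apart, but sym-1 had already left its starved level of 3.41 to 9.48 CPM by 3 h whereas let-4 had not, with 0.597 to 1.5 CPM when starved. The lipocalins, secreted carriers of small lipophilic molecules that act in the matrix of narrow tubes and epidermis, gave a run of 4 neighbours on the same chromosome: lpr-3, lpr-6, lpr-5 and lpr-4, between positions 11057362 and 11066737. lpr-3 rose from 6.28 and 8.17 CPM to 58.1, 83.5 and 105 CPM (3.51 ± 0.39, adjusted p = 0.000154). Of the others, which were chosen after their values were seen except for lpr-6, the changes were 2.63 ± 0.35 for lpr-6, 2.80 ± 0.27 for lpr-5 and 3.50 ± 0.75 for lpr-4. The first 3 of the run kept their call in all alternatives. The fourth, lpr-4, did not, with an adjusted p of 0.268 without replicate 1 at 3 h, 0.137 without replicate 2 at 3 h, 0.0534 without replicate 2 at 6 h and 0.0557 without replicate 3 at 6 h, in a range of 1.23e-05 to 0.268.

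Among the proteins that process or remove cuticle, mlt-8, a gene needed for molting, rose from 4.37 and 5.69 CPM to 52, 59.6 and 42.6 CPM (3.35 ± 0.28, adjusted p = 1.36e-05). acn-1, which encodes a protein related to angiotensin-converting enzyme but without its catalytic residues and is needed to shed the cuticle, rose from 14.2 and 17.9 CPM to 65.5, 87.1 and 74.9 CPM (2.24, adjusted p = 0.000255). Both sets of libraries stood well apart. mlt-11, a protein with protease-inhibitor domains, rose from 1.53 and 1.46 CPM to 14.2, 45.4 and 25.1 CPM (4.24 ± 0.85, adjusted p = 0.0243). Its 6 h libraries differed by more than 3 times, and its adjusted p was 0.233 and 0.268 without replicates 1 and 2 at 3 h, in a range of 9.88e-05 to 0.268 over the alternatives. nas-37, the astacin metalloprotease that digests old cuticle, was at 3.49 and 2.48 CPM and then at 7.39, 10.2 and 8.17 CPM (1.53 ± 0.35, adjusted p = 0.0323). Its adjusted p reached 0.16 and 0.405 without replicates 1 and 2 at 3 h, 0.1 and 0.0547 without replicates 2 and 3 at 6 h, and was above 0.05 without either 1 h library, in a range of 0.00101 to 0.405. The embryonic and early larval astacin nas-3 rose from 47.4 and 58.3 CPM to 187, 170 and 195 CPM (1.80 ± 0.21, adjusted p = 0.000175), after 0.921 to 1.83 CPM in starved larvae. mlt-10, another gene needed for molting, did not pass the test: it was at 27.2 and 30.5 CPM at 3 h and at 34.3, 41.8 and 46.6 CPM at 6 h (0.50, 95% interval 0.01 to 1.00, adjusted p = 0.334), having stood at 2.22 to 4.46 CPM when starved. Without either 3 h library 10 matrix and shedding genes were called, and 9 with counts of the single bin with the most reads.

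**Figure D2:**
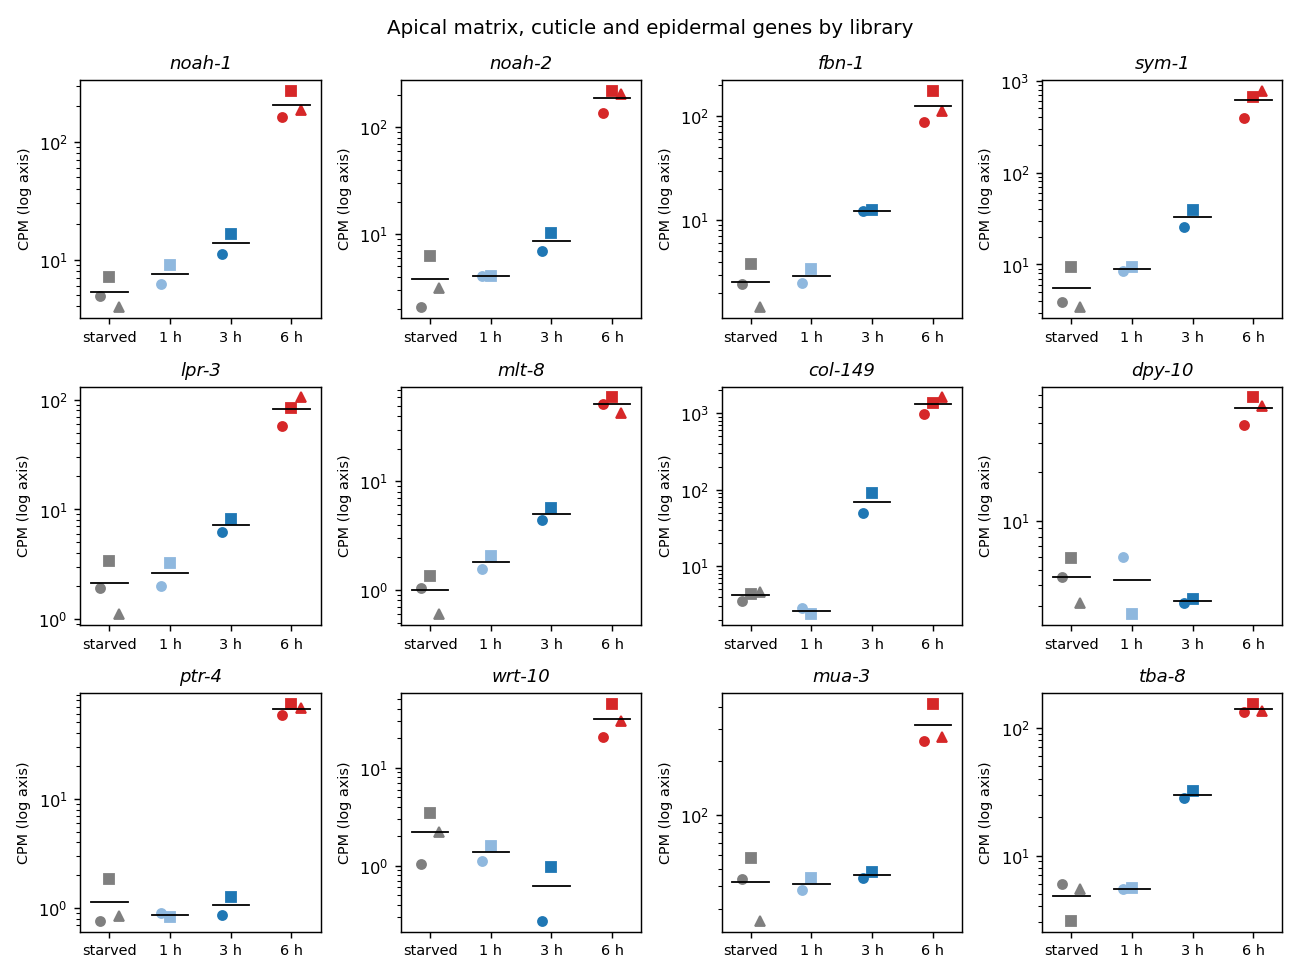
CPM on a log axis in each of the 10 libraries for 12 epidermal, matrix and cuticle genes, by time after feeding; circles, squares and triangles are replicates 1, 2 and 3, and bars are group means. All 3 libraries at 6 h lie above all 7 earlier libraries in every panel, while sym-1, col-149, tba-8 and mlt-8 had already left the starved level at 3 h and ptr-4, wrt-10, dpy-10 and mua-3 had not.

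The collagens of the cuticle moved in opposite directions. The furrow collagens, which line the circumferential furrows of the cuticle and whose loss makes animals dumpy or rolling, rose in 4 of 5 tested members, with a median of 3.68. dpy-10 (II:6710096-6712878) measured 3.11 and 3.31 CPM at 3 h and 38.9, 57.7 and 51.3 CPM at 6 h (3.94 ± 0.37, adjusted p = 2.78e-05). Its neighbour dpy-2 (II:6714236-6715941, on the other strand) rose from 1.2 and 1.7 CPM to 13.1, 18.7 and 24.4 CPM (3.68 ± 0.36, adjusted p = 4.1e-05), and dpy-9 from 0.491 and 1.46 CPM to 12.5, 32.3 and 24 CPM (4.53 ± 0.52, adjusted p = 0.000151). No 3 h library of these genes reached a 6 h library, and at 3 h none of them was above its highest starved library except dpy-9, in replicate 2. dpy-3 changed by 3.39 ± 0.60, with an adjusted p of 0.00538, or 0.126 without replicate 1 at 3 h in a range of 6.61e-07 to 0.126, and dpy-8, at 0.199 to 2.73 CPM in all 5 libraries, was not called (adjusted p = 0.921). The sixth, dpy-7, shares its bins with an overlapping gene. In the authors' deposited table it was at 1.52 FPKM (fragments scaled to gene length and library total) at 3 h, with limits of 0.865 and 2.18, and at 45.8 FPKM at 6 h, with limits of 33.9 and 57.8.

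Outside the furrow group, col-149 rose from 49 and 91 CPM to 967, 1366 and 1603 CPM (V:10291667-10292839; 4.23 ± 0.32, adjusted p = 4.62e-06), after 3.53 to 4.65 CPM in starved larvae. Of the 100 cuticle collagens tested, the furrow group included, 8 rose and 3 fell, but the median was -0.45. Every 6 h library lay below both 3 h libraries in 29 (29%, beside 15.5% of all units) and above them in 11 (11%, beside 17.1%). That median stayed below 0 under the other scalings, between -0.53 and -0.44. The count of higher collagens was 4 without replicate 1 and 5 without replicate 2 at 3 h. col-107 fell from 70.6 and 82.4 CPM to 21, 26.8 and 15.5 CPM (-1.86 ± 0.22, adjusted p = 0.000173). It had been at 246 to 317 CPM in starved larvae, so the fall continued. col-39 and col-80 lie side by side on chromosome II between 10704826 and 10708209 and followed the same order: col-39 was at 73.3 to 145 CPM starved, 33.6 and 43.3 CPM at 3 h, and 17, 16.7 and 7.52 CPM at 6 h (-1.48 ± 0.32, adjusted p = 0.0235). For col-80 the 3 h libraries held 25.4 and 40.2 CPM and the 6 h libraries 13.4, 12.4 and 11.3 CPM (-1.41 ± 0.25, adjusted p = 0.00534). Without replicate 2 at 3 h their adjusted p were 0.236 and 0.163, the highest of ranges that began at 0.000356 and 2.19e-05, and col-39 was at 0.0797 without replicate 1 at 3 h.

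The enzymes that fold and modify collagen in the endoplasmic reticulum (ER) rose in part, by smaller amounts. Of 12 tested, 5 rose and 0 fell, with a median of 0.76. Every 6 h library lay above both 3 h libraries in 8 (66.7%), beside 17.1% of all units. pdi-2, the disulfide isomerase that is also a subunit of prolyl 4-hydroxylase, was at 1988 and 2531 CPM at 3 h and at 4076, 5427 and 5876 CPM at 6 h (1.18 ± 0.22, adjusted p = 0.00744). dpy-11, a thioredoxin-related enzyme of the epidermis, was at 180 and 201 CPM and then at 403, 413 and 456 CPM (1.16 ± 0.16, adjusted p = 0.000855). pdi-1, another disulfide isomerase, was at 259 and 289 CPM and then at 513, 758 and 535 CPM (1.13 ± 0.20, adjusted p = 0.005). phy-2, the catalytic subunit of prolyl 4-hydroxylase, changed by 0.99 ± 0.20 (adjusted p = 0.0136). Groups did not overlap for any of the 4. The other catalytic subunit, dpy-18, lies outside the bins and was at 28.2 FPKM at 3 h and 57.6 FPKM at 6 h in the authors' deposited table. These calls needed both 3 h libraries: 0 of the 12 were called without replicate 1 at 3 h, where the adjusted p was 0.0505 for dpy-11, 0.2 for pdi-2, 0.133 for pdi-1 and 0.22 for phy-2, and 1, dpy-11, without replicate 2, where pdi-2 had 0.054, pdi-1 0.069 and phy-2 0.141. Over the alternatives the adjusted p ran from 3.64e-12 to 0.0505 for dpy-11, 4.32e-08 to 0.2 for pdi-2, 2.93e-07 to 0.133 for pdi-1 and 0.000254 to 0.225 for phy-2.

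fkb-5, a peptidyl-prolyl isomerase of the FKBP family, changed more than any of these, from 38.7 and 42.4 CPM to 250, 255 and 190 CPM (2.52 ± 0.19, adjusted p = 4.62e-06). Chosen after their values were seen, cyn-6, a cyclophilin, changed by 1.76 ± 0.21 (adjusted p = 0.000185), txdc-12.1, a thioredoxin-domain protein, by 1.69 ± 0.16 (adjusted p = 3.21e-05) and calu-1, the calumenin homolog of the ER, by 1.44 ± 0.18 (adjusted p = 0.00026). Each of these kept its call in all alternatives. Of 49 chaperones 3 rose (6.12%, beside 2.1% of all units), all of them ER proteins. enpl-1, the homolog of GRP94, rose from 731 and 789 CPM to 1317, 1883 and 1835 CPM (1.14 ± 0.24, adjusted p = 0.0191). The others were dnj-27, by 0.85 ± 0.21 (adjusted p = 0.047), and dnj-7, by 0.72 ± 0.16 (adjusted p = 0.0306). None of the 3 was called without replicate 1 or 2 at 3 h or replicate 2 at 6 h, and 1 was called without replicate 3 at 6 h. enpl-1 ranged from 3.96e-05 to 0.239 over the alternatives, with 0.239 and 0.183 without replicates 1 and 2 at 3 h and 0.06 without replicate 2 at 6 h. In the secretory pathway, which carries matrix proteins to the surface, 0 of 44 passed edgeR's test (10 at an unadjusted p under 0.05, all higher; DESeq2 called 2). Of the 44, 25 had every 6 h library above both 3 h libraries and 0 every one below, and the median was 0.32. The 25 are 56.8% of the list, beside 17.1% of all units.

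**Figure D3:**
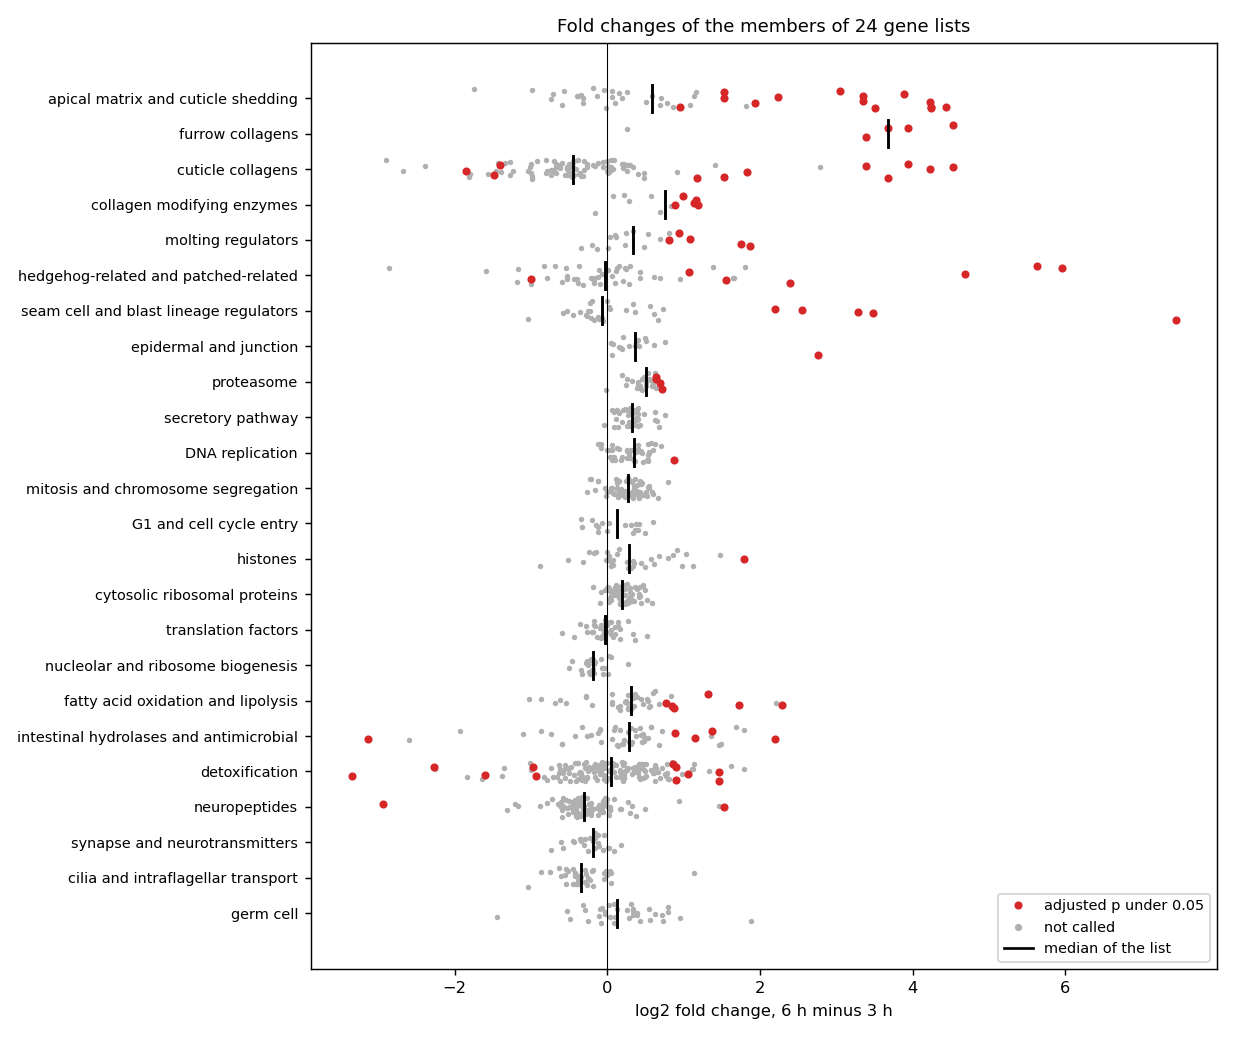
Log2 fold change (6 h minus 3 h, horizontal axis) of each tested member of 24 gene lists (1 point a gene, spread vertically for legibility; red, adjusted p under 0.05; black bar, median). The furrow collagens have the highest median at 3.68, and cuticle collagens spread on both sides of 0. The cell cycle, cytosolic ribosomal protein and translation lists have medians from -0.03 to 0.35, with 0 or 1 member called.

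Receptors and secreted proteins related to the hedgehog pathway are used by nematode epidermis for cuticle and matrix turnover rather than for patterning by hedgehog itself. Of 52 tested, 6 rose (11.5%, beside 2.1% of all units) and 1 fell (1.92%, beside 0.665%), and the median was -0.03. Every 6 h library lay above both 3 h libraries in 28.8% and below them in 23.1%, beside 17.1% and 15.5% of all units. ptr-4, a patched-related transmembrane protein (X:6060718-6065947), had the largest change of any gene with at least 1 CPM on average at 3 h: 0.874 and 1.26 CPM at 3 h against 59.1, 73.5 and 67.8 CPM at 6 h (5.95 ± 0.36, adjusted p = 7.27e-07). It had been at 0.766 to 1.84 CPM when starved, so it was not above that level at 3 h. wrt-10, a secreted warthog protein, went from 0.273 and 0.972 CPM to 20.5, 44.6 and 30.1 CPM (5.63 ± 0.60, adjusted p = 0.000112). The patched-related ptr-10, known from glia, went from 0.328 and 0.924 CPM to 14.4, 18.3 and 16.8 CPM (4.69 ± 0.55, adjusted p = 0.000159), and ptr-25 from 13.1 and 15.3 CPM to 60.8, 74.7 and 87.1 CPM (2.39 ± 0.23, adjusted p = 3.01e-05). All 4 were called in every alternative. ptr-13 went the other way, from 31 and 23.1 CPM to 12.6, 12.5 and 15.3 CPM (adjusted p = 0.00881), with 0.229 without replicate 1 at 3 h and 0.332 with the single bin with the most reads, in a range of 0.000211 to 0.332. The list count of 6 higher was 4 without either 3 h library or without replicate 3 at 6 h.

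Few genes of the epidermal and junction list were called. mua-3, a transmembrane protein that links epidermal attachment structures to the cuticle, was at 44.3 and 48.3 CPM at 3 h and at 257, 413 and 273 CPM at 6 h (2.76 ± 0.31, adjusted p = 0.000131). It was the 1 member called of 17 epidermal and junction genes, all 17 of which had an estimate above 0. tba-8, an alpha tubulin known from the seam cells, rose from 28.1 and 31.9 CPM to 132, 153 and 136 CPM (2.23 ± 0.24, adjusted p = 7.51e-05) after 3.08 to 5.98 CPM when starved, and was the 1 called of 12 tubulins. lon-1, a secreted protein that acts on body length downstream of TGF-beta signalling, was at 133 and 125 CPM and then at 267, 254 and 258 CPM (1.01 ± 0.16, adjusted p = 0.00269). Its adjusted p was 0.058 and 0.0927 without replicates 1 and 2 at 3 h, in a range of 1.43e-07 to 0.0927. Chosen after their values were seen, the mucin-like dpy-6 changed by 1.83 ± 0.19 (adjusted p = 5.97e-05), cuti-1 by 4.46 ± 0.39 (adjusted p = 1.43e-05) and the cadherin cdh-7 from 0.164 and 0.0486 CPM to 7.98, 14.3 and 10.9 CPM (adjusted p = 0.000154). The summed CPM of 8 hypodermal markers, 5 of them with counts of their own and dpy-10 among these, was 238.5 and 251 at 3 h and 289.5, 274.3 and 280.4 at 6 h. Without dpy-10 it was 235.4 and 247.7 at 3 h and 250.6, 216.6 and 229.1 at 6 h, and 3 of these 4 had an estimate below 0; their part in these results was not tested. elt-3, the hypodermal GATA factor, was at 123 and 128 CPM at 3 h and at 158, 115 and 132 CPM at 6 h (0.10 ± 0.17, adjusted p = 0.838).

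Of 19 tested molting regulators 5 rose (26.3%, beside 2.1% of all units) and 0 fell, with a median of 0.34. nhr-23, the nuclear receptor required for every molt (I:7214743-7221804), was at 33.8 and 38.7 CPM at 3 h and at 115, 108 and 143 CPM at 6 h (1.75 ± 0.19, adjusted p = 9.13e-05). It had been at 11 to 14.5 CPM when starved, so it was above that level at 3 h and again higher at 6 h, and it was called in every alternative. lin-42, the Period homolog that sets the pace of molts, was at 9.34 and 8.94 CPM and then at 25.3, 37.3 and 37.3 CPM (1.86 ± 0.34, adjusted p = 0.0063). myrf-1, a membrane-bound transcription factor that acts with the leucine-rich repeat receptor pan-1, was at 166 and 170 CPM and then at 312, 373 and 384 CPM (1.09 ± 0.19, adjusted p = 0.00489). pan-1 itself was at 238 and 219 CPM and then at 437, 422 and 449 CPM (0.93 ± 0.18, adjusted p = 0.0091), and blmp-1, the BLIMP1 homolog that primes oscillating genes, changed by 0.80 ± 0.17 (adjusted p = 0.0174). The groups of all 5 stood apart. Without replicate 1 at 3 h the adjusted p was 0.103 for lin-42, 0.108 for myrf-1, 0.117 for pan-1 and 0.201 for blmp-1, and without replicate 2 at 3 h 0.12, 0.0923, 0.194 and 0.23, so nhr-23 alone of the 5 was called then. Over the alternatives the adjusted p ran from 2.42e-06 to 0.12 for lin-42, 1.04e-06 to 0.108 for myrf-1, 3.13e-06 to 0.261 for pan-1 and 0.000357 to 0.576 for blmp-1.

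The nuclear receptor nhr-25, which acts in molting and in seam cells, was at 73.1 and 69.2 CPM at 3 h and at 53.4, 54.8 and 60.3 CPM at 6 h; its change of -0.34 (95% interval -0.66 to -0.02) did not pass the test (adjusted p = 0.318). The early heterochronic genes, which assign cell fates to the first larval stages, were not called either. lin-14 changed by -0.18 (interval -0.62 to 0.27, adjusted p = 0.758), lin-28 by 0.42 (-0.03 to 0.87, adjusted p = 0.384) and hbl-1 by 0.14 (-0.26 to 0.55, adjusted p = 0.788). In the heterochronic list of 19, the 2 called (10.5%, beside 2.1% of all units higher) were lin-42 and blmp-1.

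Regulators of the dividing blast cells included some with large changes at low levels. Of 32 tested regulators of seam cells and blast lineages 5 rose (15.6%, beside 2.1% of all units) and 0 fell, while the median was -0.07. bro-1, the CBF-beta homolog that drives seam cell division with the Runx factor rnt-1, was at 0.71 and 0.632 CPM at 3 h, near its starved 0.512 to 0.766 CPM, and at 6.31, 8.37 and 4.93 CPM at 6 h (3.28 ± 0.48, adjusted p = 0.00115). It was called in every alternative, while rnt-1 was at 6.94 and 8.94 CPM and then 9.11, 4.35 and 7.02 CPM (adjusted p = 0.785). The proneural factors lin-32, of the atonal family, and hlh-14, of the achaete-scute family, changed by 2.56 ± 0.50 (adjusted p = 0.0111) and 2.20 ± 0.53 (adjusted p = 0.04). hlh-3, also of the achaete-scute family and chosen after its values were seen, was at 4.42 and 5.78 CPM and then at 19.6, 10.4 and 19 CPM (1.67 ± 0.31, adjusted p = 0.00783). Without replicate 1 at 3 h lin-32 had 0.0509, hlh-14 0.414 and hlh-3 0.162, and without replicate 2 at 3 h 0.224, 0.141 and 0.0662; hlh-14 was also lost without replicate 1 at 6 h (0.0688) and replicate 3 at 6 h (0.102). Their ranges were 4.33e-05 to 0.224, 0.00148 to 0.414 and 1.29e-05 to 0.162.

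A group of nuclear receptor genes on chromosome I between 11429062 and 11480061 rose together: nhr-74, nhr-73, nhr-113 and nhr-245. nhr-73, a receptor known from seam cells, was at 1.64 and 1.90 CPM and then at 13.4, 16.2 and 30 CPM (3.49 ± 0.67, adjusted p = 0.0115). nhr-245 had counts that differed from those of nhr-73 by 0.77% in all, so the 2 near-identical genes cannot be told apart and count as 1 signal. nhr-74 had 1 read over both 3 h libraries and 324 over the 6 h libraries, a CPM ratio of 209 with a 95% counting interval of 37.3 to 8280. Replicate 3 at 6 h held the most of it, 12.5 CPM against 1.83 and 1.85. nhr-113 changed by 2.46 ± 0.51 (adjusted p = 0.0163). Without replicates 1 and 2 at 3 h the adjusted p was 0.172 and 0.16 for nhr-73, 0.215 and 0.177 for nhr-74, and 0.122 and 0.262 for nhr-113, which had 0.0555 without replicate 3 at 6 h. The ranges were 0.000148 to 0.172, 0.00365 to 0.215 and 2.03e-05 to 0.262. Of all 195 tested nuclear receptors 7 rose, nhr-23 and these 4 among them; without either 3 h library 1 was called. The 7 are 3.59% of the list, beside 2.1% of all units, and count nhr-73 and nhr-245 separately. Of the list, 19.5% had every 6 h library above both 3 h libraries, beside 17.1% of all units. The summed CPM of 8 seam cell markers was 154.7 and 183 at 3 h and 202.3, 189.1 and 265.7 at 6 h. This sum includes bro-1 and nhr-73, the only 2 of the 8 that were called. Of the rest, wrt-2 (-0.53), rnt-1 (-0.22) and ceh-16 (-0.21) had estimates below 0, and grd-10 (0.30), egl-18 (0.36) and elt-6 (0.02) above 0.

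**Figure D4:**
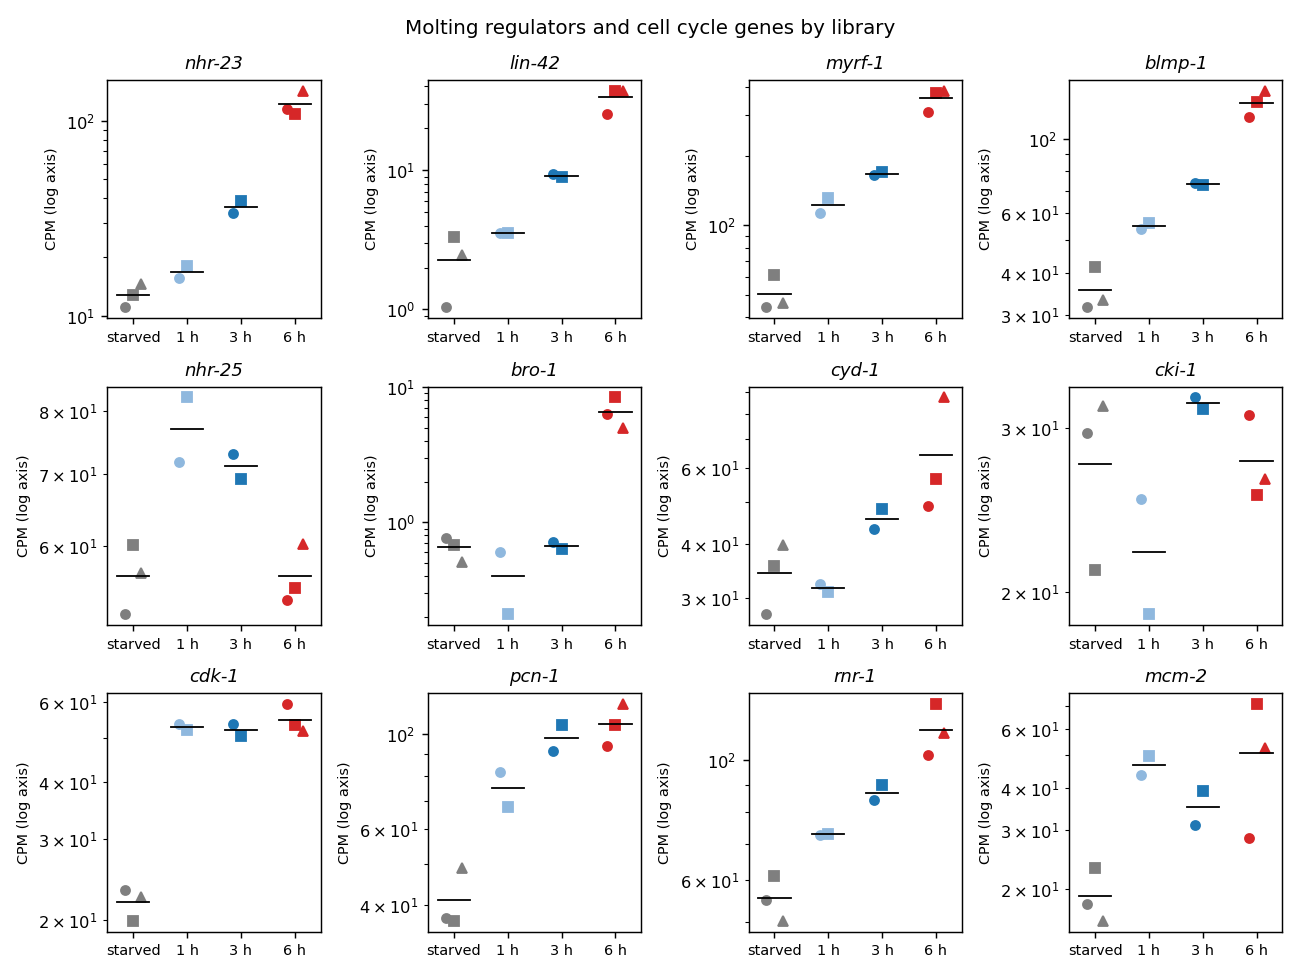
CPM on a log axis in each of the 10 libraries for molting regulators, bro-1 and cell cycle genes; circles, squares and triangles are replicates 1, 2 and 3, and bars are group means. nhr-23, lin-42, myrf-1, blmp-1 and bro-1 separate 6 h from 3 h and were called. cyd-1 and rnr-1 (higher at 6 h) and cki-1 and nhr-25 (lower) also do not overlap between these times but were not called. cdk-1, pcn-1 and mcm-2 overlap between these times and had left their starved level by 1 h.

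Few genes of cell division passed the test at this step. Of 18 genes of G1 and cell cycle entry 0 were called by edgeR or DESeq2, and 1 had an unadjusted p under 0.05. cyd-1, the cyclin D homolog, was at 43.4 and 48.1 CPM at 3 h and at 48.9, 56.6 and 87.3 CPM at 6 h (0.49, 95% interval -0.01 to 0.99, adjusted p = 0.354). cki-1, the CDK inhibitor that holds blast cells in G1 during arrest, was at 32.3 and 31.5 CPM and then at 30.9, 25.4 and 26.4 CPM (-0.21, -0.64 to 0.22, adjusted p = 0.697). cdk-1 changed by 0.08 (-0.25 to 0.40, adjusted p = 0.872; -0.013 with library totals alone), a 95% interval that excludes a change of 2-fold. In DNA replication 1 of 45 rose (2 in DESeq2), crn-1, the flap endonuclease homolog, from 19.1 and 18.5 CPM to 29.8, 38.1 and 35.3 CPM (0.87 ± 0.18, adjusted p = 0.0176). Its adjusted p was 0.185 and 0.231 without replicates 1 and 2 at 3 h and 0.0549 without replicate 2 at 6 h, in a range of 0.000642 to 0.255.

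Short of the threshold, both lists lay above 0 on the whole. In DNA replication 20 of 45 had every 6 h library above both 3 h libraries and 0 every one below, with a median of 0.35, and in mitosis and chromosome segregation 23 of 60 did and 0 every one below, with a median of 0.27. None of the 60 was called by edgeR, 10 had an unadjusted p under 0.05, all higher, and DESeq2 called 3; the shares over all units were 17.1% above and 15.5% below. Under the other scalings these medians were between 0.17 and 0.35. pcn-1, the sliding clamp of replication, was at 91.1 and 105 CPM and then 93.9, 105 and 117 CPM (0.10, -0.28 to 0.49, adjusted p = 0.847). rnr-1, the large subunit of ribonucleotide reductase, was at 84.3 and 89.8 CPM and then 102, 127 and 112 CPM (0.39, 0.05 to 0.73, adjusted p = 0.266). The replicative helicase subunit mcm-2 was at 31.1 and 39.1 CPM and then 28.4, 70.9 and 52.5 CPM (0.53, -0.10 to 1.15, adjusted p = 0.447). Of these 3, rnr-1 was the one whose times did not overlap. Of 34 tested histones, his-32, an H3 gene, was called, from 1.75 and 1.51 CPM to 5.77, 5.41 and 5.73 CPM (1.79 ± 0.35, adjusted p = 0.0101; 0.127 and 0.195 without replicates 1 and 2 at 3 h, range 5.52e-05 to 0.195). Most histone genes lie outside the bins: of 27 at 5 FPKM or more in the authors' deposited table, 9 were more than 2-fold higher at 6 h and 0 more than 2-fold lower, where 21.6% of all genes outside the bins were higher and 20.6% lower. Histone genes are near-identical copies, and their messages mostly lack the poly(A) tail by which RNA was selected.

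Of the lineage regulators for later divisions, lin-22 and hlh-8 were at low levels and were not called. lin-22, a Hairy-related factor that restrains neuroblast fate in the seam, was at 1.20 and 1.80 CPM and then at 2.48, 2.45 and 1.99 CPM (0.62, -0.18 to 1.41, adjusted p = 0.493). hlh-8, the Twist homolog of the mesoblast M lineage, was at 3.06 and 2.33 CPM and then at 2.53, 1.34 and 2.44 CPM (-0.36, -1.23 to 0.52, adjusted p = 0.751).

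Of the growth machinery, rps-7 and fib-1 were higher at 3 h than in starved larvae and did not pass the test at this step. rps-7, a protein of the small ribosomal subunit, was at 5437 and 6916 CPM at 3 h and 6374, 7144 and 6541 CPM at 6 h, against 2789 to 3689 CPM when starved (0.11, -0.35 to 0.57, adjusted p = 0.86). fib-1, fibrillarin of the nucleolus, was at 1524 and 1668 CPM and then at 1406, 1986 and 1275 CPM, against 171 to 176 CPM when starved (-0.04, -0.48 to 0.41, adjusted p = 0.961). Both overlapped between 3 h and 6 h. None of 68 cytosolic ribosomal proteins, 37 translation factors, 27 nucleolar factors, 30 aminoacyl-tRNA synthetases or 38 sarcomere proteins passed edgeR's test. At an adjusted p of 0.05 DESeq2 called 1 of the sarcomere proteins and 0 of the others. In the order of these lists, the members at an unadjusted p under 0.05 were 2, 1, 1, 1 and 3. Their medians in the same order were 0.195, -0.03, -0.195, -0.015 and 0.165. Estimates above 0 were found in 63, 16, 4, 14 and 35 members, and in 6763 of all 13226 units. Of 29 tested proteasome subunits 26 (89.7%) had every 6 h library above both 3 h libraries, beside 17.1% of all units, and the median was 0.50. There were 4 that rose, the ATPases rpt-1 (0.72 ± 0.16), rpt-4 (0.69 ± 0.17) and rpt-3 (0.63 ± 0.16) and the ubiquitin receptor rpn-10 (0.63 ± 0.16), with adjusted p from 0.0266 to 0.0454. None of the 4 was called without replicate 1 or 2 at 3 h, without replicate 2 at 6 h or with library totals alone, 1 was without replicate 1 at 6 h, and DESeq2 called 12.

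Genes of fat and sugar metabolism included several that had fallen on feeding and were higher again at 6 h. Of 43 genes of fatty acid oxidation and lipolysis 6 rose (14%, beside 2.1% of all units) and 0 fell, with a median of 0.31. In that list 2 were lower with library totals alone, with DESeq2, with barcode set as a block and without replicate 3 at 6 h. ech-6, an enoyl-CoA hydratase, was at 254 to 308 CPM in starved larvae, at 79.6 and 72.9 CPM at 3 h and at 234, 239 and 283 CPM at 6 h (1.73 ± 0.18, adjusted p = 5.94e-05). lipl-6, a lysosomal lipase homolog, rose from 3.44 and 3.40 CPM to 14.8, 14.5 and 20.9 CPM (2.29 ± 0.34, adjusted p = 0.00125), above its starved 1.5 to 3.26 CPM. acly-2, an ATP citrate lyase homolog of fatty acid synthesis, was at 20.6 and 20.1 CPM and then at 43, 60.4 and 56.1 CPM (1.39 ± 0.21, adjusted p = 0.00165). These 3 were called in every alternative and their groups stood apart; the count of 6 was 3 without replicate 1 and 2 without replicate 2 at 3 h. mtrr-1, the methionine synthase reductase homolog, was at 50.8 and 34 CPM and then at 126, 111 and 149 CPM (1.6 ± 0.21, adjusted p = 0.000357), also in every alternative. acly-2 was the 1 called of 18 tested genes of fatty acid synthesis and desaturation, whose median was -0.28. In 8 of the 18 (44.4%) every 6 h library lay below both 3 h libraries, beside 15.5% of all units. In 3 (16.7%) every one lay above, beside 17.1%.

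The same order, high when starved, low at 3 h and higher again at 6 h, was seen in mdh-1, a malate dehydrogenase homolog, at 544 to 662 CPM, then 302 and 326 CPM, then 518, 530 and 588 CPM (0.80 ± 0.18, adjusted p = 0.0256). The glutathione peroxidase homolog gpx-5 was at 31.7 to 37.7 CPM, then 18.6 and 18.4 CPM, then 39.1, 33.2 and 36.4 CPM (0.97 ± 0.17, adjusted p = 0.00459), and gpx-7 changed by 1.48 ± 0.26 (adjusted p = 0.00591). The groups at 3 h and 6 h stood apart in all 3, and the 6 h libraries of gpx-5 reached their starved level. Without replicates 1 and 2 at 3 h the adjusted p was 0.332 and 0.229 for mdh-1, 0.0981 and 0.107 for gpx-5, and 0.115 and 0.0829 for gpx-7; mdh-1 had 0.0615 without replicate 3 at 6 h. The ranges were 2.83e-05 to 0.332, 5.64e-06 to 0.153 and 1.25e-05 to 0.115. acox-1.2, an acyl-CoA oxidase of the peroxisome, and acdh-12, an acyl-CoA dehydrogenase, rose by 1.32 ± 0.24 (adjusted p = 0.0058) and 0.87 ± 0.19 (adjusted p = 0.0243). acox-1.2 had 0.17 without replicate 2 at 3 h in a range of 1.27e-05 to 0.295, and acdh-12 had 0.173 and 0.31 without replicates 1 and 2 at 3 h and 0.0507 and 0.0741 without replicates 1 and 2 at 6 h, in a range of 0.0013 to 0.31.

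Starvation genes of the same pathways did not follow ech-6. acs-2, an acyl-CoA synthetase strongly induced by fasting, had dropped from 2554 to 3253 CPM when starved to 70.9 and 64.2 CPM at 3 h, and was at 26.6, 23.4 and 49.4 CPM at 6 h (-1.03, -1.61 to -0.45). All 3 values lay below both 3 h libraries, but the adjusted p was 0.0619; it was 0.0027 without replicate 3 at 6 h, 0.0346 with library totals alone and 0.00538 in DESeq2, in a range of 0.00134 to 0.387. icl-1, the enzyme of the glyoxylate cycle that makes sugar from fat, was at 222 and 212 CPM at 3 h and at 151, 165 and 215 CPM at 6 h (-0.30, -0.74 to 0.15, adjusted p = 0.566), against 4339 to 5167 CPM when starved. tps-2, a trehalose-6-phosphate synthase, was at 58.5 and 65.1 CPM and then at 112, 138 and 112 CPM (0.97 ± 0.17, adjusted p = 0.00535; 0.144 and 0.0692 without replicates 1 and 2 at 3 h, range 3.13e-06 to 0.144). The gene pugs-2 lies within its span on the opposite strand (II:14604048-14605542), and went from 15.4 and 18 CPM to 143, 148 and 123 CPM (3.05 ± 0.21, adjusted p = 3.79e-06). The sources used here do not say whether counting used strand, so reads in bins where both genes overlap cannot be told apart. With only the bins that overlap no bin of the other strand, both genes kept their call.

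Digestive and defence genes of the intestine rose in 4 of 52 members (7.69%, beside 2.1% of all units) and fell in 1 (1.92%, beside 0.665%). Every 6 h library lay above both 3 h libraries in 20 (38.5%) and below them in 6 (11.5%). The shares over all units were 17.1% and 15.5%. cpr-6, a cathepsin B-like protease, was at 207 to 251 CPM when starved, at 66.2 and 74.4 CPM at 3 h and at 152, 177 and 137 CPM at 6 h (1.14 ± 0.18, adjusted p = 0.00173). The lysozyme lys-4 was at 9.56 to 14.3 CPM when starved and at 73.2 and 62.1 CPM at 1 h. It went from 7.37 and 6.51 CPM at 3 h to 33.1, 17 and 45.7 CPM at 6 h (2.20 ± 0.34, adjusted p = 0.00195), below both 1 h libraries. cpr-6 had an adjusted p of 0.0797 without replicate 1 at 3 h (range 1.51e-08 to 0.133), and lys-4 of 0.0526 without replicate 2 at 3 h, the highest of a range that began at 5.18e-09. cpr-2, another cathepsin B-like gene, fell from 4.75 and 4.08 CPM to 0.539, 0.601 and 0.349 CPM (-3.14 ± 0.54, adjusted p = 0.00548; 0.051 without replicate 1 at 3 h, the highest of a range from 1.41e-08). The lysozyme ilys-5 was at 45.3 and 58.7 CPM and then at 112, 156 and 136 CPM (1.37 ± 0.31, adjusted p = 0.0306, range 0.000652 to 0.342), and the aspartic protease asp-13 changed by 0.89 ± 0.20 (adjusted p = 0.03, range 0.000399 to 0.321). Both were lost without either 3 h library, with 0.342 and 0.16 for ilys-5 and 0.25 and 0.321 for asp-13 without replicates 1 and 2. In addition, ilys-5 had 0.085 and 0.0592 without replicates 2 and 3 at 6 h and asp-13 had 0.0908 and 0.069 without replicates 1 and 3 at 6 h. Without either 3 h library the 4 higher members became 1. Of 102 C-type lectins, sugar-binding proteins of which many act in immunity, 4 rose and 0 fell. That is 3.92% higher beside 2.1% of all units, and 16.7% had every 6 h library above both 3 h libraries beside 17.1% of all units. The 4 were clec-225, from 6.22 and 4.81 CPM to 25.9, 20.4 and 19.4 CPM (1.99 ± 0.34, adjusted p = 0.00426; 0.113 without replicate 2 at 3 h, range 2.69e-07 to 0.113), and clec-48, clec-72 and clec-62 by 0.80 to 0.96, with adjusted p from 0.0224 to 0.0389. Without replicate 1 at 3 h 1 of the 4 was called, without replicate 2 at 3 h 0, and without replicate 3 at 6 h 1. ges-1, the gut esterase, chosen after its values were seen, changed by 1.55 (adjusted p = 0.000402) in every alternative. elt-2, the intestinal GATA factor, was at 26 and 31.2 CPM and then at 25.2, 24.5 and 26.5 CPM (-0.17 ± 0.18, adjusted p = 0.721), and the summed CPM of 10 intestinal markers was 7361 and 8449 at 3 h and 7196, 8687 and 10840 at 6 h.

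The other named genes that fell are given by whether their 3 h mean was above or below their starved mean. Among those above it, ugt-63, a UDP-glucuronosyltransferase (V:5108000-5110774), was at 0.555 to 0.897 CPM when starved and highest at 1 h, with 175 and 179 CPM. It was at 129 and 125 CPM at 3 h and at 26.3, 23.6 and 28.7 CPM at 6 h (-2.28 ± 0.16, adjusted p = 3.79e-06). Its relative ugt-34, also highest at 1 h, was at 23.3 and 23.4 CPM at 3 h and at 4.21, 2.03 and 0.697 CPM at 6 h (-3.35 ± 0.40, adjusted p = 0.000254). The glutathione S-transferase gst-24 was at 212 and 218 CPM and then at 59.7, 90.4 and 62 CPM (-1.60 ± 0.19, adjusted p = 0.000154). All 3 remained above their starved libraries at 6 h and were called in every alternative. hrg-7, an aspartic protease-related protein of heme signalling, went from 523 and 383 CPM to 216, 220 and 182 CPM (-1.14 ± 0.18, adjusted p = 0.00185; 0.0909 without replicate 1 at 3 h, range 3.9e-08 to 0.0909). cyp-36A1, a cytochrome P450, changed by -0.97 ± 0.19 (adjusted p = 0.00972), with 0.0564 and 0.178 without replicates 1 and 2 at 3 h in a range of 0.000247 to 0.178. The mean of cyp-36A1 was 76.6 CPM at 1 h and 57 CPM at 3 h. Among 150 detoxification genes, 6 rose (4%, beside 2.1% of all units) and 5 fell (3.33%, beside 0.665%). Every 6 h library lay above both 3 h libraries in 25.3% and below them in 16%, beside 17.1% and 15.5% of all units. With library totals alone 2 were higher and 6 lower, and with DESeq2 11 were higher and 7 lower. ugt-57 was one of those that rose, from 56.7 and 61 CPM to 135, 158 and 195 CPM (1.47 ± 0.19, adjusted p = 0.000336). The median of the list was 0.05, and -0.03 with library totals alone. Its count of higher members was 2 and 1 without replicates 1 and 2 at 3 h, and of lower members 3 without either. The means at starved, 1 h and 3 h were 44.3, 24.1 and 58.9 CPM for ttr-26, a transthyretin-related protein, 20.0, 71.6 and 79.6 CPM for bigr-1, 39.9, 39.7 and 47.6 CPM for sahd-1 and 2.55, 31.8 and 7.5 CPM for gst-21. At 1 h ttr-26 and sahd-1 were not above their starved mean. These 4 changed by -1.06, -0.93, -0.73 and -0.93, with adjusted p of 0.029, 0.0477, 0.0244 and 0.033 that reached 0.276, 0.479, 0.346 and 0.469 over the alternatives from 0.00285, 0.0101, 0.00178 and 0.00639. Each of these 4 was lost without either 3 h library and without replicate 3 at 6 h, all 4 also without replicate 2 at 6 h, and ttr-26, bigr-1 and gst-21 also without replicate 1 at 6 h.

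Among those with a 3 h mean below the starved mean, ram-2 (II:11015507-11016765) was at 382 to 675 CPM when starved, at 78.5 and 114 CPM at 3 h and at 16.2, 22.7 and 11.8 CPM at 6 h (-2.51 ± 0.28, adjusted p = 0.000122). best-1, a bestrophin chloride channel homolog, was at 127 to 168 CPM, then 88.1 and 85.6 CPM, then 34.7, 34.9 and 36.4 CPM (-1.30 ± 0.16, adjusted p = 0.000218). ccch-1, a zinc finger protein, was at 129 to 165 CPM, then 63.2 and 67.1 CPM, then 28.9, 26.6 and 30 CPM (-1.19 ± 0.16, adjusted p = 0.000664). These 3, like col-107, were called in every alternative. acs-19, an acetyl-CoA synthetase, changed by -0.80 ± 0.18 (adjusted p = 0.0244), with 0.238 and 0.204 without replicates 1 and 2 at 3 h and 0.0852 without replicate 1 at 6 h, in a range of 5.39e-05 to 0.238.

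**Figure D5:**
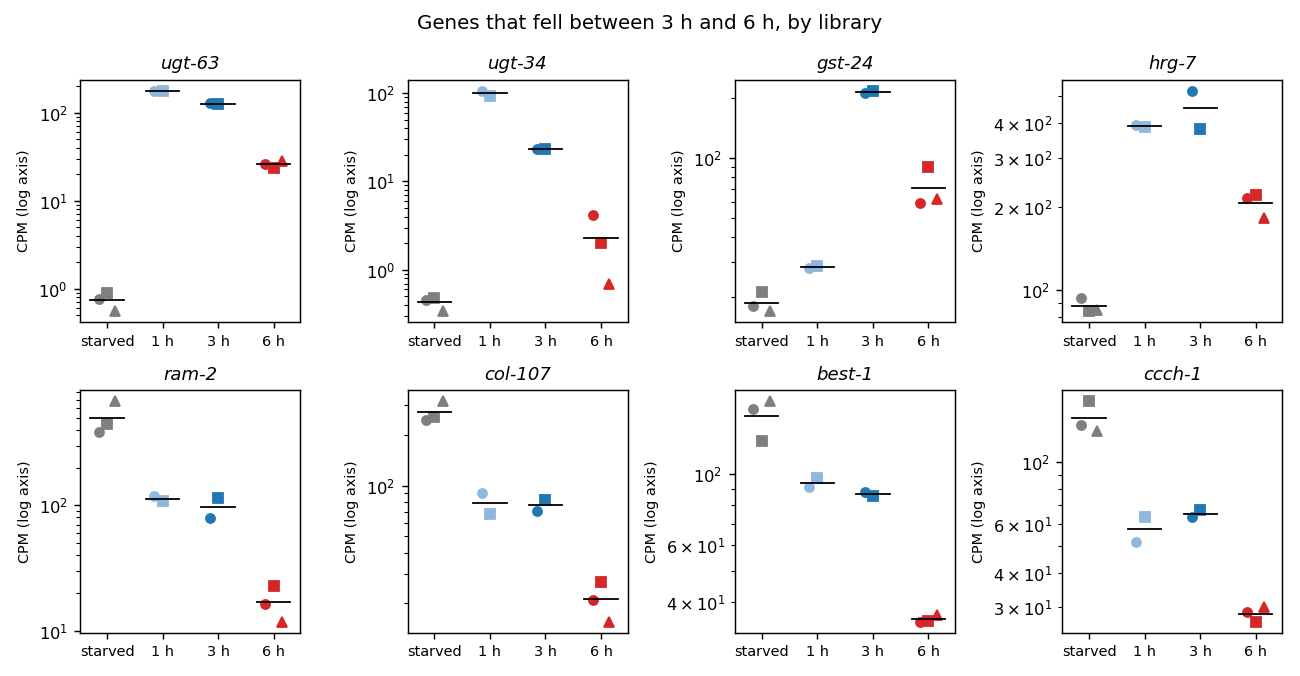
CPM on a log axis in each of the 10 libraries for 8 genes that fell between 3 h and 6 h; circles, squares and triangles are replicates 1, 2 and 3, and bars are group means. In the upper row the genes were lowest in starved larvae, and in the lower row they were highest there.

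Neuronal genes had medians below 0, with few calls. Of 99 neuropeptide genes 1 rose and 1 fell. DESeq2 called 2 higher and 6 lower, the fit with barcode set as a block 1 and 5, and library totals alone 1 and 3. At an unadjusted p under 0.05 there were 3 higher and 22 lower. Of the 99, 37 had every 6 h library below both 3 h libraries and 5 every one above, with a median of -0.30. Among 38 genes of cilia and intraflagellar transport 0 were called by edgeR or DESeq2 (10 at an unadjusted p under 0.05), 18 had every library below and 1 every one above, with a median of -0.34. Among 25 genes of synapses 0 were called by edgeR (2 at an unadjusted p under 0.05) and 1 by DESeq2, 11 had every library below and 0 above, with a median of -0.19. Genes with symbols of the chemoreceptor families, which encode receptors of sensory neurons, had 1 member higher and 1 lower of 295 (6 higher and 27 lower at an unadjusted p under 0.05; 1 and 1 in DESeq2). The higher one is srlf-7, taken into the list by the first letters of its symbol. In this list 73 had every library below, 15 every one above, and the median was -0.29. In the order of these 4 lists, the shares with every 6 h library below both 3 h libraries were 37.4%, 47.4%, 44% and 24.7%. The shares with every one above were 5.05%, 2.63%, 0% and 5.08%. Over all units tested 15.5% lay below and 17.1% above. Under the other scalings the 4 medians lay between -0.43 and -0.18. nlp-25, a neuropeptide-like gene, fell from 9.28 and 11.4 CPM to 1.51, 1.90 and 0.598 CPM (-2.94 ± 0.50, adjusted p = 0.00387; 0.0528 without replicate 2 at 3 h, the highest of a range from 3.04e-07), after 0.128 to 0.824 CPM when starved. nlp-31, a peptide with antimicrobial activity, rose from 3.99 and 3.74 CPM to 13.2, 10.9 and 9.36 CPM (1.53 ± 0.30, adjusted p = 0.0112; 0.139 and 0.178 without replicates 1 and 2 at 3 h, range 4.68e-05 to 0.178). The insulin-like peptide ins-35 was at 17.7 and 25 CPM and then at 63.5, 38.9 and 57.6 CPM (1.32 ± 0.26, adjusted p = 0.0107; 0.22 without replicate 1 at 3 h, range 7.11e-05 to 0.22), the 1 called of 31 genes of the insulin pathway. The summed CPM of 8 neuronal markers was 1466 and 1616 at 3 h and 1194, 1250 and 1487 at 6 h, and its part in these values was not tested.

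The germ cells had 0 calls by edgeR among 37 genes of the germ cell list, with 5 at an unadjusted p under 0.05 and 1 called by DESeq2. Their 7 markers summed to 51.1 and 57.2 CPM at 3 h and to 29.98, 53.55 and 110.8 CPM at 6 h, so that the 6 h libraries differed among themselves by more than 3 times, with replicate 3 the highest. Of the markers of adults, 1 of 7 sperm markers had counts of its own and was at most at 1.35 CPM in any of the 5 libraries, and 4 of 6 of egg-laying adults, the vitellogenins, summed to at most 3.06 CPM.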

How the data were processed

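RNA selected by its poly(A) tail was sequenced on a SOLiD 4 instrument, per the labels' protocols. Bowtie 0.12.7 and TopHat aligned the reads, per the submitters' processing notes. The authors deposited, for each library, raw counts of reads in exonic bins of WS210 gene models, per the deposited notes; use of strand in counting is not stated. The authors also deposited FPKM from cuffdiff (Cufflinks 1.0.2), 1 value for each time over its pooled libraries with confidence limits, per the deposited notes, so these have no SD. These limits are the authors' other deposited values. Groups come from the sample titles; replicate numbers are in accession order and pair nothing.

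The 108516 bins were summed by gene, so that a read over several bins enters several times. Of 13374 units, 257 merge overlapping genes and were tested but not named. Reads outside the bins, 8.35% to 8.99% in the 5 libraries, were left out. The test was edgeR 4.0.16 in R 4.3.3 (TMM factors, 0.813 to 0.956 in the 5 libraries; filterByExpr; robust quasi-likelihood fit over all 10 libraries and 4 groups, 6 residual degrees of freedom, common biological coefficient of variation 0.206), with Benjamini-Hochberg adjustment over 13226 units, and was tested on simulated data. CPM use TMM-scaled totals, and log2 CPM a prior count of 2. No replicate pair agreed within sampling noise, with chi-square per degree of freedom of 22.8 or more. Symbols were matched by sequence name to a WBcel235 table, which gave one for 8073 of 13117 single units; coordinates span a gene's WS210 bins. Counting intervals cover counting error only, since PCR copies of a molecule are not independent.

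Genes were named by a rule: among single genes with a symbol, a mean log2 CPM of 4 or more, a call and groups that do not overlap, the 15 largest rises and falls; up to 4 called members of each of 54 gene lists with a mean of 4 CPM or more, and those against the direction of their list; and a set of 23 regulators and marker genes whatever their values, of which rol-6, dpy-7 and unc-54 have no tested unit of their own. Other genes are said to be chosen after their values were seen. The comparison, the lists and the rule were chosen with earlier results of these data known. Alternatives changed the scaling, the filter, the libraries, the bins, a block for barcode set, and the tool (DESeq2 1.42.0).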

Additional observations from a re-analysis of the deposited data

How the results depend on the processing

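Against 366 calls (278 higher, 88 lower), DESeq2 called 688 (491 higher, 197 lower) and counts of the single bin with the most reads 162 (126 higher, 36 lower). With barcode set as a replicate block 565 were called, 383 higher and 182 lower, 364 of them shared; the third barcode set holds no 3 h library, and since replicate numbers follow sample order the block shows no pairing of cultures. The deviations of same-numbered libraries at 3 h and 6 h correlated at 0.126 over 2 shared numbers. Leaving out 1 library in turn gave 120 to 450 calls, 94 to 335 higher and 26 to 115 lower; the lowest came without replicate 1 at 3 h, with 125 without replicate 2 at 3 h, and the lower calls were 54 without either library at 1 h. Where 1 library is left at 3 h that library is assumed to vary as much as those of other times. The other scalings, filters and library choices gave 314 to 412 calls. Of 89 called genes named by the rule, 37 kept their call in all alternatives that tested them and none changed sign; the 52 others were each lost without a 3 h library, and 27 with the single bin. Signs turned only for uncalled genes: cdk-1 (-0.013 with library totals alone), pcn-1 (-0.007 with the block), hlh-8 (0.20 with the single bin), rps-7 (-0.049 to 0.298 leaving out 1 library) and fib-1 (0.021 with the block, 0.088 with barcodes 1 to 8, and -0.251 to 0.088 leaving out 1 library). The causes were not tested. Library totals alone moved the median of all units from 0.01 to -0.08.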

Other observations

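Some called genes were not described above. aagr-4, of the acid alpha-glucosidase family, went from 15.3 and 16.7 CPM at 3 h to 106, 129 and 103 CPM at 6 h (2.82 ± 0.25, edgeR adjusted p = 1.73e-05). The alpha-galactosidase homolog gana-1, chosen like tyr-1, peb-1 and dbd-18 after its values were seen, went from 13.4 and 12.8 CPM to 47.8, 42.8 and 51.9 CPM (1.85 ± 0.20, adjusted p = 7.51e-05); both were called in every alternative. The tyrosinase homolog tyr-1, of an enzyme family that oxidises tyrosine, changed by 1.55 ± 0.18 (adjusted p = 0.000132), also in every alternative. peb-1, a DNA-binding protein of the pharynx and other tissues that line or shed cuticle, was at 11.1 to 15.4 CPM when starved, at 8.63 and 11 CPM at 3 h and at 39.5, 46.1 and 57.6 CPM at 6 h (2.28 ± 0.23, adjusted p = 5.48e-05). rml-4 rose from 23.5 and 26.2 CPM to 110.5, 153 and 107 CPM (2.31 ± 0.20, adjusted p = 1.43e-05). The gene srlf-7, at 160 to 209 CPM when starved, rose from 20.9 and 15.3 CPM to 44.6, 47.7 and 34.1 CPM (1.22 ± 0.21, adjusted p = 0.00384; 0.137 without replicate 2 at 3 h, range 1.89e-06 to 0.137). dbd-18, listed by symbol alone, stood at 0.0853 to 0.242 CPM when starved, at 1.42 and 0.924 CPM at 3 h and at 27.6, 38.7 and 21.5 CPM at 6 h (4.64 ± 0.37, adjusted p = 7.37e-06).

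Called genes were spread over all chromosomes. The share of tested units that rose ran from 1.42% on chromosome IV to 2.58% on X, and the share that fell from 0.199% on III to 1.1% on II. Of the called units, 11 had counts within 2% of those of another called unit, among them pud-2.1 and pud-2.2, trpl-3 and trpl-4, and nhr-73 and nhr-245, so that each such set stands for a single signal.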
